A study of Homo sapiens with 4 samples.

Results

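Genes of the primary cilium were followed by RNA-seq in RPE1 SunTag cells depleted of TOP2B, the beta form of DNA topoisomerase 2. The group holds 53 named genes, written down by function: 11 of the IFT-B and 6 of the IFT-A complex of intraflagellar transport (IFT), 4 of its motors, 8 of the BBSome and its recruiting GTPase, 14 of the transition zone, 5 of the basal body and 5 of membrane protein traffic into the cilium. They were found among the 60725 genes of the count table by Ensembl identifier. Only names with 10 counts or more in 2 libraries or more were kept, so all 53 pass this filter by choice. The same filter left 15356 genes for the test. Beyond this filter no measured value entered the choice of these names, but the list was drawn up with earlier results of these data known.

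The primary cilium is a single antenna-like projection of the cell surface, built on a basal body that derives from the mother centriole. Intraflagellar transport carries its building blocks: the IFT-B complex and heterotrimeric kinesin-2 move them towards the tip, and the IFT-A complex and cytoplasmic dynein 2 bring them back. The BBSome carries membrane proteins in and out, and the transition zone at the base acts as a gate. Retinal pigment epithelial RPE1 cells are a standard model of ciliation, and they usually form cilia once serum is withdrawn.

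The cells were hTERT-RPE1, a telomerase-immortalised human line, carrying the SunTag system and kept in DMEM with 10% FBS. Control cells received 10 nM of a Silencer Select negative control siRNA (the labels call these libraries scramble), and TOP2B knockdown cells received 10 nM of a Dharmacon ON-TARGETplus siRNA pool against TOP2B. Both were transfected again after expansion and harvested on day 5, with 2 independent replicates per group. The knockdown therefore rests on 1 siRNA pool and the control on 1 siRNA, and ciliated cells were not counted here.

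Libraries held between 20310259 and 23887013 counted reads, so that 1 CPM (counts scaled to library size) stood for 20.2 to 23.9 reads. TOP2B itself had 154.9 and 143.5 CPM in the control libraries and 15.3 and 13.3 CPM in the knockdown libraries, 9.58% of the control level. Its log2 fold change was -3.38 ± 0.14 (SE, adjusted p = 5.1e-06, edgeR quasi-likelihood test with Benjamini-Hochberg adjustment over all genes tested, as for every adjusted p here). Of all genes tested, 10.8% were called at an adjusted p below 0.05, 6.66% higher and 4.18% lower in the knockdown, and the median log2 fold change was -0.0029.

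Of the 53 cilium genes, 6 were called, which is 11.3% and close to the 10.8% of all genes. KIF3B, BBS4 and BBS9 fell and TTC21B, NPHP4 and TMEM107 rose, so each direction holds 5.66% of the list. The median log2 fold change of the 53 was -0.094, the middle 50% of the values ran from -0.26 to 0.089, and the whole range was -1.07 to 0.76. Values were below 0 for 34 genes and above 0 for 19, against 50.2% of all genes tested below 0. In 30 of the 53 (56.6%) the knockdown libraries did not overlap the controls, both being higher or both lower, while this was so in 54.3% of all genes. The median size of the change, regardless of sign, was 0.20 for the cilium genes and 0.24 for all genes, and KIF3B was the only member that differed by more than 2-fold.

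**Figure D1:**
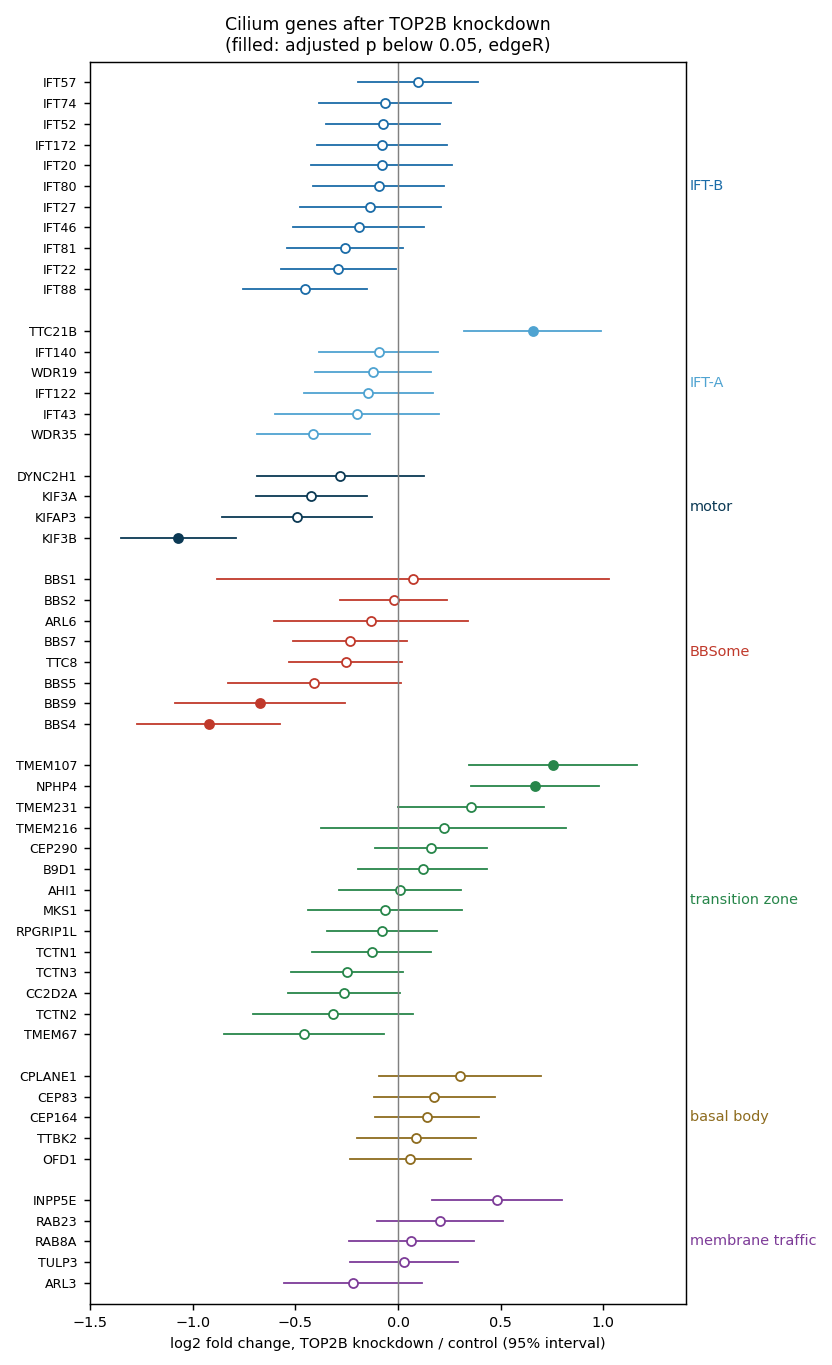
Log2 fold change (TOP2B knockdown over control) of each of the 53 cilium genes on the x axis, with its 95% confidence interval, grouped and coloured by role. Filled points mark the 6 genes with an adjusted p below 0.05, 3 to the left and 3 to the right of 0.

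For most members the interval leaves little room for a large change. Of the 47 genes not called, 46 had a 95% confidence interval that stayed within 1 log2 unit of 0 on both sides. BBS1, the rarest member, was the exception. The interval excluded 0 for 7 of the 47 (IFT22, IFT88, WDR35, KIF3A, KIFAP3, TMEM67 and INPP5E), which were not past the threshold once p-values were adjusted over all genes. An unadjusted p below 0.05 was reached by 13 members (24.5%), 9 below 0 and 4 above, and by 26.3% of all genes tested. In 7 members (BBS1, IFT22, RAB23, RAB8A, IFT80, B9D1 and BBS5) more than 20% of the exon bases overlap another annotated gene on either strand. Reads there cannot be told apart from those of a partner on the same strand. For a partner on the opposite strand they can be told apart only if counting used strand. The columns carry a tag for stranded paired-end data, while the protocol describes single-end reads, so this was not settled. Overlap was computed from GENCODE v44, while the authors counted with v24, and a partner absent from v24 could not affect the counts. None of these 7 members was called.

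The motors stood lowest of the roles, with a median log2 fold change of -0.46, and all 4 were below 0. Summed over the 4 genes, the motors had 285.1 and 277.4 CPM in the control libraries and 187.7 and 172.4 CPM in the knockdown libraries. Most of this difference came from KIF3B, with a mean of 130.2 CPM in the control and 62.0 CPM in the knockdown. The other 3 motor genes were not called. KIF3B and KIF3A encode the motor subunits of heterotrimeric kinesin-2 and KIFAP3 its accessory subunit, and DYNC2H1 encodes the heavy chain of dynein 2.

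KIF3B (ENSG00000101350, chromosome 20 from 32277651 to 32335011 on the plus strand of GRCh38) had 122.0 and 138.3 CPM in the control libraries and 59.2 and 64.8 CPM in the knockdown libraries. Each knockdown library was below both control libraries by a wide margin, and 47.6% of the control level was left. The log2 fold change was -1.07 ± 0.13 (SE, n = 2 and 2, adjusted p = 0.0013), with a 95% confidence interval of -1.35 to -0.79. It ranked lowest of the 53 by fold change, and TCTN3 and BBS2 alone had a higher level per length than its 21.3 CPM per kb of transcript in the control. No exon base of KIF3B overlaps another annotated gene, and the call held without any one of the 4 libraries, at values from -1.16 to -0.97.

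The partners of KIF3B in kinesin-2 were lower by less and were not called. They are named because they share its complex, after their values were seen. KIF3A had 50.7 and 48.5 CPM in the control and 39.0 and 35.0 CPM in the knockdown libraries, with a log2 fold change of -0.42 (95% confidence interval -0.69 to -0.15, adjusted p = 0.053). KIFAP3 had 20.6 and 22.5 CPM against 13.2 and 17.5 CPM, a log2 fold change of -0.49 (-0.86 to -0.13, adjusted p = 0.087). The groups did not overlap in either gene. When every gene with at least 1 count was tested, both passed, with KIF3A and KIFAP3 raising the number of lower members from 3 to 5, and KIFAP3 also passed without knockdown replicate 2. DYNC2H1 had 91.8 and 68.1 CPM in the control and 76.4 and 55.1 CPM in the knockdown libraries. Here the groups overlapped, with control replicate 2 below knockdown replicate 1, and the log2 fold change of -0.28 (-0.69 to 0.13, adjusted p = 0.37) was not called.

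**Figure D2:**
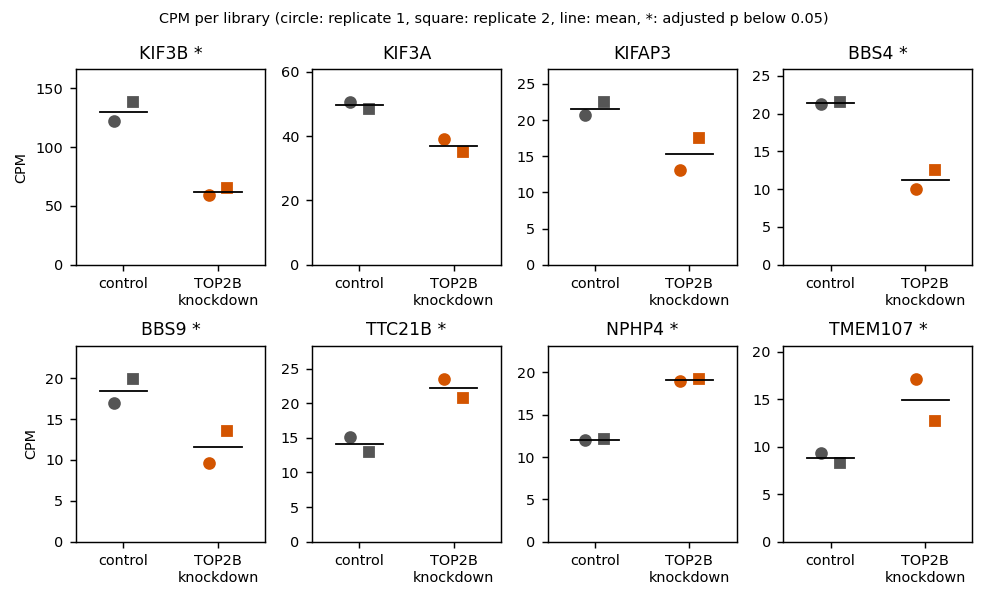
CPM in each of the 4 libraries for the 6 called cilium genes and for KIF3A and KIFAP3, with 1 panel per gene and the y axis starting at 0. Circles are replicate 1, squares replicate 2 and lines the mean of the 2 libraries. In all 8 panels the control and knockdown libraries do not overlap.

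None of the 11 IFT-B genes was called, and 10 of them were below 0, with a median of -0.095. The complex coats the outward moving trains and brings in tubulin. Its lowest member was IFT88, a core subunit needed for cilium assembly, with 22.2 and 20.8 CPM in the control and 15.6 and 15.8 CPM in the knockdown libraries. Control and knockdown did not overlap, and the log2 fold change was -0.46 (95% confidence interval -0.76 to -0.15, adjusted p = 0.060). The highest was IFT57, a peripheral subunit, with 37.9 and 42.4 against 39.7 and 46.1 CPM and a log2 fold change of 0.096 (-0.19 to 0.39, adjusted p = 0.69). Its groups overlapped, and its sign turned to -0.0068 without knockdown replicate 2. The other 9 lay between -0.29 and -0.064.

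The IFT-A complex was split. TTC21B (ENSG00000123607, chromosome 2 from 165857475 to 165953851 on the minus strand), which encodes the IFT139 subunit, rose. It had 15.2 and 13.0 CPM in the control and 23.5 and 20.8 CPM in the knockdown libraries, so that both knockdown libraries were above both controls, at 158% of the control mean. TTC21B had a log2 fold change of 0.65 ± 0.15 (SE, n = 2 and 2, adjusted p = 0.022). That call was lost without control replicate 2 (0.55, adjusted p = 0.094) and without knockdown replicate 1 (0.57, adjusted p = 0.083). The other 5 IFT-A genes were all below 0 and not called, from -0.094 to -0.41. The lowest of them, WDR35, the IFT121 subunit, had 46.1 and 41.2 CPM in the control and 33.3 and 32.3 CPM in the knockdown libraries, without overlap, and a log2 fold change of -0.41 (-0.69 to -0.14, adjusted p = 0.060).

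Taken as 1 transport machine, 19 of the 21 IFT and motor genes were below 0 (90.5%, median -0.15), against 15 of the 32 other members (46.9%, median 0.018) and 50.2% of all genes tested. The set joins the IFT-B, IFT-A and motor roles and was formed with results of these data known. The BBSome group, with 7 of 8 below 0, is counted among the 32. These are counts over genes that share the same 4 libraries, and they were not tested. Of the 19, IFT20, IFT52, IFT74, IFT80 and IFT172 were above 0 in at least 1 fit without 1 library. When a knockdown library was set against a control library directly, 16 to 19 of the 21 were lower in each of the 4 possible pairs. Their medians ran from -0.21 to -0.10. In these pairs, which reuse the same 4 libraries, 40.6% to 59.4% of the 32 other members and 48.4% to 51.0% of all genes were lower. Among the 12 tested IFT and motor genes outside the list, 10 were below 0, with a median of -0.46. The near-identical TTC30A and TTC30B are counted separately among them. Apart from KIF3B, the separate subunits in the list lay between -0.49 and 0.65.

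**Figure D3:**
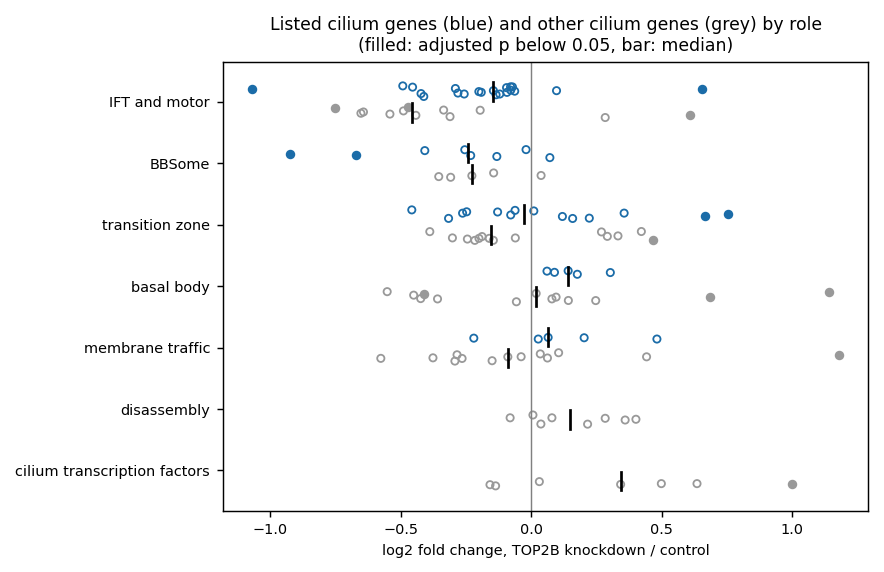
Log2 fold change (x axis) of the 53 listed cilium genes in blue and of the 72 tested cilium genes outside the list in grey, in rows by role, with filled points for an adjusted p below 0.05 and black bars at the medians. The IFT and motor rows lie mostly to the left of 0, with medians of -0.15 and -0.46. The basal body genes of the list lie to the right, with a median of 0.14. Those outside the list lie on both sides, with a median of 0.018.

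The BBSome held the other 2 genes that fell. Of its 7 listed subunits and ARL6, the GTPase that recruits it to membranes, 7 were below 0 and the median was -0.24. BBS4 (ENSG00000140463, chromosome 15 from 72686179 to 72738475 on the plus strand), a subunit that joins the complex late in its assembly, had 21.2 and 21.5 CPM in the control and 10.0 and 12.6 CPM in the knockdown libraries. The groups were far apart, with 52.8% of the control level left. Its log2 fold change was -0.92 ± 0.16 (SE, n = 2 and 2, adjusted p = 0.0061), and the call held without each library in turn, from -1.09 to -0.76.

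BBS9 (ENSG00000122507, chromosome 7 from 33109557 to 33877180 on the plus strand) encodes a core scaffold subunit and is the longest gene of the list, at 768 kb. It had 16.9 and 19.9 CPM in the control and 9.63 and 13.5 CPM in the knockdown libraries. These groups did not overlap, but the knockdown libraries lay about as far from each other as the higher of them lay from the nearer control. BBS9 had a log2 fold change of -0.67 ± 0.18 (SE, n = 2 and 2, adjusted p = 0.046). The call was lost without control replicate 2 (-0.54, adjusted p = 0.12), without knockdown replicate 1 (-0.44, adjusted p = 0.25) and when the test was limited to genes averaging 100 counts or more (adjusted p = 0.058).

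BBS1, the subunit that contacts ARL6 and cargo, had the highest value of the complex and the lowest level of all 53 members, 0.380 CPM per kb of transcript in the control. Its 1.38 and 1.18 CPM in the control and 1.94 and 0.744 CPM in the knockdown libraries overlapped, and the log2 fold change of 0.071 had an interval of -0.88 to 1.03. At 15 to 41 counts per library a 1.5-fold change of this gene was not detectable, and its sign turned without control replicate 2 (-0.026) or knockdown replicate 1 (-0.78). In addition, 68.5% of its exon bases overlap other annotated genes. The remaining 5 genes of the group were between -0.41 and -0.020 and none was called.

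The transition zone genes went both ways, with 7 of 14 below 0, a median of -0.027 and 2 calls, both higher. NPHP4 (ENSG00000131697, chromosome 1 from 5862811 to 5992473 on the minus strand), a nephrocystin of the gate, had 11.98 and 12.11 CPM in the control and 19.0 and 19.2 CPM in the knockdown libraries. Replicates lay within 0.3 CPM of each other in both groups, far less than the distance between the groups. NPHP4 had a log2 fold change of 0.67 ± 0.14 (SE, n = 2 and 2, adjusted p = 0.016), a rise to 159% of the control mean, and it was called in each of the fits without 1 library, at 0.66 to 0.68.

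TMEM107 (ENSG00000179029, chromosome 17 from 8172457 to 8176399 on the minus strand), a small membrane protein of the MKS module of the gate, was the member with the highest fold change and the shortest gene of the list, at 3.94 kb. Its CPM was 9.35 and 8.29 in the control and 17.1 and 12.7 in the knockdown libraries. Both knockdown libraries were above the controls, replicate 1 by more than replicate 2. TMEM107 had a log2 fold change of 0.76 ± 0.18 (SE, n = 2 and 2, adjusted p = 0.029), and without knockdown replicate 1 the call was lost (0.52, adjusted p = 0.20). The snoRNA gene SNORD118 overlaps 3.40% of the TMEM107 exon bases.

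At the other end of the transition zone group, TMEM67, the receptor-like protein meckelin, had 19.6 and 14.96 CPM in the control and 13.6 and 11.6 CPM in the knockdown libraries. The groups did not overlap, though control replicate 2 lay close to knockdown replicate 1. Its log2 fold change was -0.46 (95% confidence interval -0.85 to -0.070, adjusted p = 0.13), and of the fits with 3 libraries it passed in the one without control replicate 2 (-0.63, adjusted p = 0.043). The other 11 genes, among them CEP290 and the tectonics TCTN1, TCTN2 and TCTN3, were not called and lay between -0.32 and 0.36. TCTN3 had the highest level per length of all members, 49.7 CPM per kb of transcript in the control.

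All 5 basal body genes were above 0 and none was called, with a median of 0.14. Summed, they had 198.3 and 184.4 CPM in the control and 230.5 and 200.6 CPM in the knockdown libraries. The highest was CPLANE1, a planar polarity effector needed to dock transport particles at the basal body, with 56.5 and 44.7 against 73.1 and 51.8 CPM. Its groups overlapped, since knockdown replicate 2 lay between the control libraries. The log2 fold change was 0.30 (-0.091 to 0.70, adjusted p = 0.31), and of the fits with 3 libraries it passed in the one without knockdown replicate 2 (0.54, adjusted p = 0.048). The lowest was OFD1, a centriolar protein, with 28.4 and 25.5 against 29.8 and 26.4 CPM and a log2 fold change of 0.060 (-0.24 to 0.36, adjusted p = 0.82). These groups overlapped, and the sign turned without control replicate 2 (-0.0090) or knockdown replicate 1 (-0.026). CEP164 and CEP83, which build the distal appendages that anchor the cilium, and TTBK2, the kinase that starts its assembly, were between 0.089 and 0.18. Outside the list, 6 of the 13 tested basal body genes were below 0, with a median of 0.018.

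Of the 5 membrane traffic genes, 4 were above 0 and none was called. INPP5E, the phosphatase that sets the lipid makeup of the ciliary membrane, had 23.1 and 20.1 CPM in the control and 32.6 and 27.7 CPM in the knockdown libraries. Both knockdown libraries were above both controls. The log2 fold change was 0.48 (95% confidence interval 0.17 to 0.80, adjusted p = 0.058). It passed without control replicate 1 (0.58, adjusted p = 0.040), without knockdown replicate 2 (0.60, adjusted p = 0.033) and when every gene with at least 1 count was tested (adjusted p = 0.031). ARL3, the GTPase that releases lipid-anchored cargo inside the cilium, was the lowest, with 43.3 and 54.1 against 37.7 and 46.0 CPM. The groups overlapped, and the log2 fold change was -0.22 (-0.56 to 0.12, adjusted p = 0.40). TULP3, RAB8A and RAB23 were between 0.027 and 0.20, and 57.8% of the RAB23 exon bases overlap another gene. Outside the list, 8 of the 13 tested membrane traffic genes were below 0, with a median of -0.090.

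**Figure D4:**
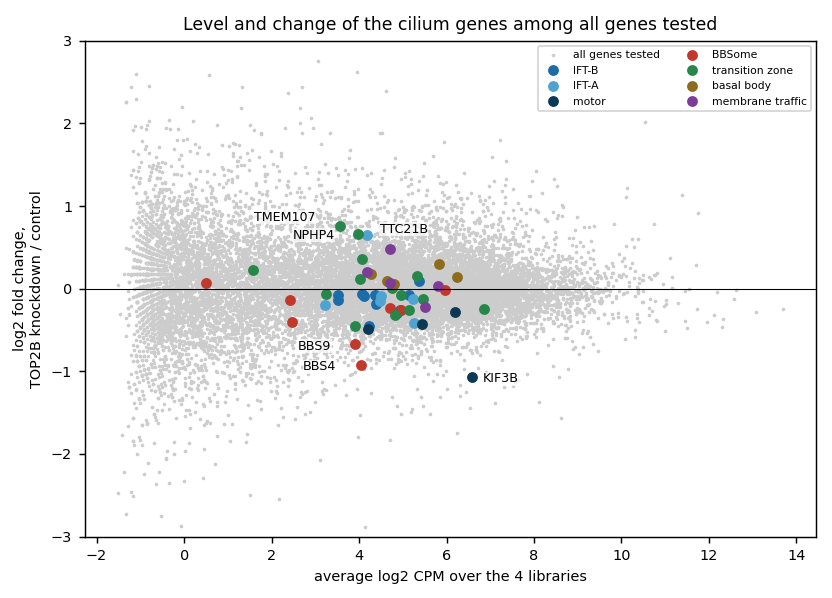
Log2 fold change (y axis) against the average log2 CPM over the 4 libraries (x axis) for all 15356 genes tested (grey, of which 12 lie outside the y range of -3 to 3) and for the 53 cilium genes, coloured by role. The 6 called members are named and, other than KIF3B, lie among genes of middle level.

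How far the calls rest on single libraries can be seen from the fits with 3 libraries. KIF3B, BBS4 and NPHP4 were called in each of the 4 fits. Without knockdown replicate 1 the number of called members was 3 in place of 6, with 1 higher and 2 lower. Without knockdown replicate 2 it was 9, with 5 higher and 4 lower, without control replicate 1 it was 7, and without control replicate 2 it was 5. Over all genes tested in the same fits, 8.29%, 9.16%, 10.3% and 8.03% were called, in that order, against 10.8% with all 4 libraries. The sign turned in at least 1 of these fits for 14 of the 53 genes, none of them called and none further than 0.13 from 0 in the fit with all libraries. In these fits the group left with 1 library is assumed to vary as much as the other group. The Wald test of DESeq2 called the same 6 genes, and so did edgeR with the size factors of DESeq2 or with library sizes alone.

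A further 80 genes known from cilia were taken from a list of the same roles, with cilium disassembly and ciliary transcription factors added. Of these, 72 were tested and 9 were called (12.5%, against 10.8% of all genes), 6 higher and 3 lower. CCP110, a centriolar cap protein that is removed when a cilium grows, rose from 31.7 and 27.4 to 50.4 and 44.4 CPM (log2 fold change 0.68, adjusted p = 0.011). MCIDAS, a regulator of multiciliated cells, rose from 2.97 and 2.54 to 5.43 and 5.60 CPM (1.00, adjusted p = 0.017). Both calls held without each library in turn, and neither gene's groups overlapped.

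A further 6 calls outside the list were each lost without at least 1 library. FBF1, a distal appendage protein, had a log2 fold change of 1.14 (adjusted p = 0.022), which was 0.85 (adjusted p = 0.13) without knockdown replicate 1, and 49.6% of its exon bases overlap another gene. DYNC2I2, an intermediate chain of dynein 2, was at 0.61 (adjusted p = 0.014), and without control replicate 1 at 0.50 (adjusted p = 0.086). Its partner DYNC2I1 went the other way, at -0.47 (adjusted p = 0.041), and was not called without control replicate 1, knockdown replicate 1 or knockdown replicate 2 (adjusted p = 0.12 to 0.22). The homodimeric kinesin KIF17 was at -0.75 (adjusted p = 0.047), and at -0.47 without control replicate 2 (adjusted p = 0.30) and -0.65 without knockdown replicate 1 (adjusted p = 0.12). ANKS6, of the inversin compartment, was at 0.47 (adjusted p = 0.034) and CEP89, of the distal appendages, at -0.41 (adjusted p = 0.049), and neither was called in any fit with 3 libraries (adjusted p = 0.062 to 0.18 and 0.14 to 0.27).

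The 8 genes of cilium disassembly, which include the kinases AURKA, NEK2 and PLK1, were all expressed and none was called, with 7 above 0 and a median log2 fold change of 0.15. Of 12 ciliary transcription factors, 7 were tested. RFX1, RFX2 and RFX3, which bind the X-box of ciliary promoters, and their relatives RFX5 and RFX7 had log2 fold changes of 0.031, 0.63, -0.14, -0.16 and 0.50 and none was called. FOXJ1, RFX6 and RFX8 had 0 counts in all 4 libraries. TTC30A and TTC30B are near-identical IFT-B genes, and how reads that fit both were counted is not stated. They were at -0.65 and -0.64 and not called (adjusted p = 0.065 and 0.061).

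Of 12 listed markers of motile ciliated cells, 11 were found in the table and 4 were tested. All 4 were below 0, with a median log2 fold change of -0.40, and none was called. FOXJ1, DNAH9 and RSPH1, which define these cells, had no count. DNAH5, an axonemal dynein, was at 5.70 to 7.06 CPM and CCDC40 at 2.63 to 3.84 CPM, and they made up most of the summed level, which was 11.5 to 14.0 CPM in the control and 11.01 to 11.32 CPM in the knockdown libraries. Of 10 listed retinal pigment epithelium markers, 5 were tested, all 5 above 0 and none called. RPE65, TYR and TTR were at 0 in every library, and RLBP1 and TYRP1 were below the filter. MITF and OTX2 were expressed at 38.2 to 44.8 and 11.2 to 13.4 CPM. BEST1, RDH5 and PMEL were at lower levels, and PMEL had the highest log2 fold change of the 5, at 1.17 (adjusted p = 0.14). Of 16 proliferation genes, 10 were called higher (62.5%, against 6.66% of all genes tested), all 16 were above 0, and their median log2 fold change was 0.60. Those called were PCNA, MCM2 to MCM7, CDK1, RRM2 and TYMS, while MKI67, CCNA2, CCNB1, TOP2A, BUB1 and CDC20 were not. The paper reports, from a cell cycle assay by PI staining, that cell cycle progression was not altered by TOP2B depletion. That assay does not measure RNA. The summed level of the 16 genes was 2623 to 2776 CPM in the control and 3698 to 3947 CPM in the knockdown libraries. Cilia are taken down when cells enter the cycle, and the part of this difference in the cilium values was not tested. In these bulk libraries a change in the share of cells that express a gene cannot be told apart from a change in RNA per cell.

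Some of the members hold a promoter motif that the choice of names did not use. RFX factors bind the X-box, an inverted repeat, which was searched as GTNNCC, 0 to 3 bases of any kind, then GGNNAC, a pattern that reads the same on both strands. The window was the 300 bases from 250 before to 50 after each RefSeq transcript start (GRCh38.p14), and 48 of the 53 members had an entry (BBS9, IFT22, TCTN2, TMEM67 and WDR35 had none). The motif was present in 11 of these (22.9%), against 4.70% of all 27305 genes with a promoter entry and 5.63% of the tested ones. The stricter form GTTNCC with GGNAAC was present in 5 members (10.4%), against 0.905% of all genes and 1.14% of the tested ones. Among the cilium genes outside the list, the looser form was present in 10.9% and the stricter form in 6.25%. Of the 12 transition zone genes with an entry, 6 held it, and none of the motor, basal body or membrane traffic genes did.

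The stretches with the stricter form are printed because they show the motif as these members hold it, in 28 bases from 5′ to 3′ along the gene, with the arms in capitals.
ARL6: agctcctGTTGCCaaGGGAACggtgcct
IFT122: atgtacGTTGCCaggGGTAACgcaggta
TCTN3: actgacgGTTGCCaGGCAACggaggcac
TCTN1: tgtcgcgGTTGCCgGGCAACgcgctgtc
TMEM107: gtacacgGTTACCaaGGCAACtgggcgg
They lie at chr3:97764727-97764754 (plus strand), chr3:129440206-129440233 (plus strand), chr10:95694122-95694149 (minus strand), chr12:110614122-110614149 (plus strand) and chr17:8176405-8176432 (minus strand). Counted from the transcript start, the motif began at base -24 in ARL6, -12 in IFT122, -215 in TCTN3, 1 in TCTN1 and -45 in TMEM107.

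Members with and without the motif were set side by side for their change after TOP2B knockdown. The 11 that held it had a median log2 fold change of -0.064 and 1 call (TMEM107), and the 37 without it had a median of -0.079 and 4 calls. Of the 5 members with the stricter form, TMEM107 was the one called, and the other 4 lay between -0.25 and -0.13. A match of these letters is a description and not a measured binding site.

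The hexamer GCAACC was also looked up in 3′ untranslated regions, a word chosen with earlier results of these data known. It was present in 8 of the 53 members (15.1%), against 23.4% of the 12515 tested genes with an annotated 3′ untranslated region. The word is printed for KIF3B, the member with the largest change, with 11 bases on either side and the word in capitals.
KIF3B: agactgtgtatGCAACCcccaatagacc
It lies at chr20:32334156-32334183 (plus strand). The word was also present in TTC21B, which was called in the other direction (log2 fold change 0.65). The remaining members that held it, KIF3A, BBS1, BBS5, ARL6, TTBK2 and RAB8A, were not called. The 8 members with the word had a median log2 fold change of -0.034 and the 45 without it of -0.094, while over all tested genes the medians were 0.058 with the word and -0.038 without.

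The level and the length of the genes were compared with their change as a description. The members spanned 0.380 to 49.7 CPM per kb of transcript in the control, with a median of 6.54. Their median gene length was 57.4 kb, against 34.7 kb for the tested protein-coding genes. Across the 53 members, Spearman's rho between gene length and log2 fold change was -0.14, and across the 12542 tested protein-coding genes it was -0.021. Genes measured in the same libraries are not independent, and the longest and the shortest member, BBS9 and TMEM107, moved in opposite directions.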

How the data were processed

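The 4 RNA-seq libraries were 2 of control and 2 of TOP2B-depleted cells. Per the submitters' processing notes and the paper's methods, the authors checked reads with FastQC 0.11.6, aligned single-end reads of TruSeq libraries to GRCh38 with STAR 2.5.4a and took gene counts while mapping (Gencode v24). The deposited values are raw counts per gene. The strand setting is not given in the sources used here, so exon overlap with genes on either strand was computed. The table repeats its 4 columns with identical values, and these 4 were not used.

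Genes that reached 10 counts in 2 or more libraries entered the test in edgeR 4.0.16 (glmQLFit, glmQLFTest, TMM, condition as the only term) in R 4.3.3, with Benjamini-Hochberg adjustment over all of them, a threshold of 0.05 and a common dispersion of 0.0117. Standard errors and 95% intervals came from the same fit. TMM factors entered the CPM, and log2 CPM had a prior count of 2. Level per length is CPM per kb of the canonical transcript of GENCODE v44, which also gave positions and held 98.9% of the tested genes. Values were given for every called member and for the highest and lowest of each role. Of the called cilium genes outside the list, 1 is counted but not reported here by name. The members, lists and motifs were chosen with earlier results of these data known. Alternatives were DESeq2 1.42.0, its size factors in edgeR, library size alone, other count filters, the replicate number as a block and fits without each library. The scripts were tested on simulated data. With 2 libraries per group, p-values and intervals cover the spread between these libraries only.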

Additional observations from a re-analysis of the deposited data

How the results depend on the processing

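With every gene of at least 1 count tested, 9 of the 53 cilium genes were called (4 higher, 5 lower). Outside the list, 17 cilium genes were called (10 higher, 7 lower) in place of 9. Of all 29440 genes tested in this way, 7.96% were called (1358 higher, 985 lower). Limited to genes averaging 100 counts or more, 5 outside the list were called, 1 of them lower, and 11.7% of all genes. Replicate numbers are shared between the groups, and same-numbered libraries deviated together (correlation across genes 0.681; 43 of the 53 genes had the same sign of the replicate difference in both groups), but with 2 pairs of independent replicates the pairing is not established. With the replicate block, 25 of the 53 were called (7 higher, 18 lower, including all 6 genes called without it) and 41 outside the list (18 higher, 23 lower), while 44.2% of all tested genes were called (6786, 3440 higher and 3346 lower). Among the 25 were DYNC2H1, CPLANE1 and ARL3, whose groups overlapped when replicate numbers were ignored. Fits without 1 library called 3 to 9 of the 53 (1 to 5 higher, 2 to 4 lower) and 5 to 10 outside the list (4 to 7 higher, 1 to 3 lower), against 8.03% to 10.3% of all genes, and the median over the 53 ranged from -0.0762 to -0.0566. Signs turned in 14 of the 53, among them BBS1 (-0.78 to 0.60), OFD1 (-0.026 to 0.15) and IFT57 (-0.0068 to 0.20). The X-box count was 5 with the stricter form in place of 11. The cause of these differences was not tested. Changes under 1.5-fold in members near 1 CPM could not be detected at this depth, and cilia, proteins and a further siRNA were not measured here.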
